A study of Homo sapiens with 8 samples.

Results

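The glycogen enzymes described here are 9 genes: the phosphorylases PYGL, PYGB and PYGM, the lysosomal glucosidase GAA, and the genes of glycogen synthesis and glucose phosphate conversion GYS1, GBE1, UGP2, PGM1 and GYG1. Each had 1 probe set under a single gene name, so 9 of 21214 named probe sets are described, and 0 further probe sets carried a member's name among several. The set was chosen by measured values: the day 2 minus day 0 values of PYGL in both lines were known from earlier results of these data, and the other 8 genes encode enzymes of the same pathway. All values of that contrast are therefore given for the members as a description, with no test. For the members, tests were made only on the contrasts between the cell lines and on the difference of the day changes. For PYGL the latter is a description too. The day change was tested for EGLN2 and for other pathway genes, whose lists were chosen with earlier results of these data known.

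The cells were T47D, an established human breast carcinoma line of luminal, hormone receptor positive type. Lentivirus had brought in either a conditional shRNA (hairpin RNA) against EglN2, an oxygen-dependent prolyl hydroxylase, or a control shRNA named Scr. RNA was taken at day 0 (0 h of doxycycline) and at day 2 (48 h), with doxycycline at 1 ug/ml per the labels. Each of the 4 groups (Scr line at day 0, Scr line at day 2, EglN2 shRNA line at day 0, EglN2 shRNA line at day 2) had 2 arrays. All groups shared the T47D background and a lentiviral hairpin, and both day 2 groups had doxycycline. The sources used here do not say whether a line was 1 clone, which promoter drove the hairpin, or whether replicates were separate cultures. The p-values rest on the spread between the 2 arrays of a group, pooled over the 4 groups. The fit also drew it toward the spread of all named probe sets. The spread between the 2 arrays of a group may be technical only.

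Glycogen is a branched polymer of glucose. Its synthesis starts on the protein glycogenin, glycogen synthase lengthens the chains with glucose from UDP-glucose, and the branching enzyme makes the branches. Glycogen phosphorylase, which has a liver, a brain and a muscle form encoded by separate genes, releases glucose 1-phosphate from chain ends, and acid alpha-glucosidase breaks glycogen down inside lysosomes. In many cell types several of these genes are known to respond to low oxygen through HIF (hypoxia-inducible factor), whose alpha subunits are substrates of the EglN enzymes.

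The bases before the transcription starts of the members are shown because that response, and the response to amino acid stress through ATF4, act through short DNA elements. RefSeq promoter windows (GRCh38.p14) were at hand for 8 of the 9 members, 11 windows in all, and the 250 bases before each start were searched. The 3 printed here are those of PYGL and PYGB, whose arrays separated by day in opposite directions in both lines, and of GBE1, whose day changes had opposite signs in the lines. They lie at chr14:50944484-50944733 (minus strand), chr20:25247835-25248084 (plus strand) and chr3:81761646-81761895 (minus strand). Each reads 5′ to 3′ on the gene's strand and ends at the base before the start. Capitals mark the hypoxia response core, ACGTG or GCGTG, on either strand.
PYGL: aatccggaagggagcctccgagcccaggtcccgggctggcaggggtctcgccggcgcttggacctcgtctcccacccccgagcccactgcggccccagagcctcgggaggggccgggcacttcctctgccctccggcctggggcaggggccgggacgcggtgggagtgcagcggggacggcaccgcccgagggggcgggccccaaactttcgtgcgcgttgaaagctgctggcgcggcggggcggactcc
PYGB: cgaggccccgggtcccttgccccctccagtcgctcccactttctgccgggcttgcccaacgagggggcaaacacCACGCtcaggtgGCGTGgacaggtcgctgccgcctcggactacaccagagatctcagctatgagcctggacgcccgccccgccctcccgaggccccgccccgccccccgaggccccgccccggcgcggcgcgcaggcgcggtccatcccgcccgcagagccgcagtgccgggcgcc
GBE1: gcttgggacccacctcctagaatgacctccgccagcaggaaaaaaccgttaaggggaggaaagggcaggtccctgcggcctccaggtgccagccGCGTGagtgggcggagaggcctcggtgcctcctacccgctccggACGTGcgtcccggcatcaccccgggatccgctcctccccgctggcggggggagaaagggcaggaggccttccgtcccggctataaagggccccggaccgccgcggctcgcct

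The PYGL window held 0 matches to the hypoxia response core, and the PYGB and GBE1 windows held 2 each. Of the 8 members with a window, 7 had at least 1 match in a window: PYGB, GAA, GYS1, GBE1, UGP2, PGM1 and GYG1. Some members had several windows, and counted by window 8 of 11 held a match. Over all 35116 promoter windows of the table, 43.2% held a match in the same 250 bases. The members' windows were mostly rich in G and C, at 51.2% to 81.2% against a median of 58.0% over all windows, and PYGL stood at 76.0%. The GAA and GYG1 windows also held the E box CACGTG (6.34% of all windows), which contains the core on both strands. The ATF4 type element TGATGCAA and the cAMP response element TGACGTCA had 0 matches in the 11 windows, against 0.772% and 1.65% of all windows. A match is a stretch of letters and no measured site.

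Values are RMA log2 levels, so a difference of 1 is a factor of 2, and levels of different probe sets are not set against each other. The array medians over the named probe sets lay between 7.81 and 7.86, and replicate arrays correlated at 0.992 to 0.997. Of 9 luminal epithelial markers all 9 were above the array median on every array, against 0 of 4 basal or mesenchymal, 0 of 3 leukocyte, 0 of 2 endothelial and 0 of 3 hepatocyte markers and 1 of 3 skeletal muscle markers (DES). The basal marker KRT14 was above the median on 7 of 8 arrays, and the hepatocyte marker APOA1 on 2 of 8. The transcript of the hairpin's target was read by a probe set shared by EGLN2 and the RAB4B-EGLN2 read-through. It stood at 8.85 and 9.04 in the EglN2 shRNA line at day 0, 8.26 and 8.29 there at day 2, 8.97 and 9.0 in the Scr line at day 0, and 8.81 and 8.90 there at day 2. The lowest pair was that of the EglN2 shRNA cells after doxycycline, which stood 0.67 (SE 0.11) below the same cells at day 0 (limma, adjusted p = 0.134, short of the threshold of 0.05). At day 2 the EglN2 shRNA line minus the Scr line was -0.58 (SE 0.11, limma adjusted p = 0.151). The difference of the day changes was -0.54 (SE 0.15, limma adjusted p = 0.671). The hairpin's own target was thus called in none of these tests.

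Among the phosphorylases, PYGL was higher after 48 h of doxycycline in both lines. PYGL encodes the liver form of glycogen phosphorylase. Its Scr arrays stood at 8.63 and 8.83 before doxycycline and at 9.72 and 9.70 after 48 h. The EglN2 shRNA arrays stood at 8.88 and 9.07 before and at 9.71 and 9.99 after. All 4 day 2 arrays lay above all 4 day 0 arrays. The difference was 0.98 (SE 0.13) in the Scr line, or 1.97-fold, and 0.88 (SE 0.13) in the EglN2 shRNA line, or 1.83-fold. Averaged over the lines it was 0.93 (SE 0.09), the third largest positive value among the 21214 probe sets. Day 2 differed from day 0 in doxycycline and in time in culture, and these cannot be told apart.

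**Figure D1:**
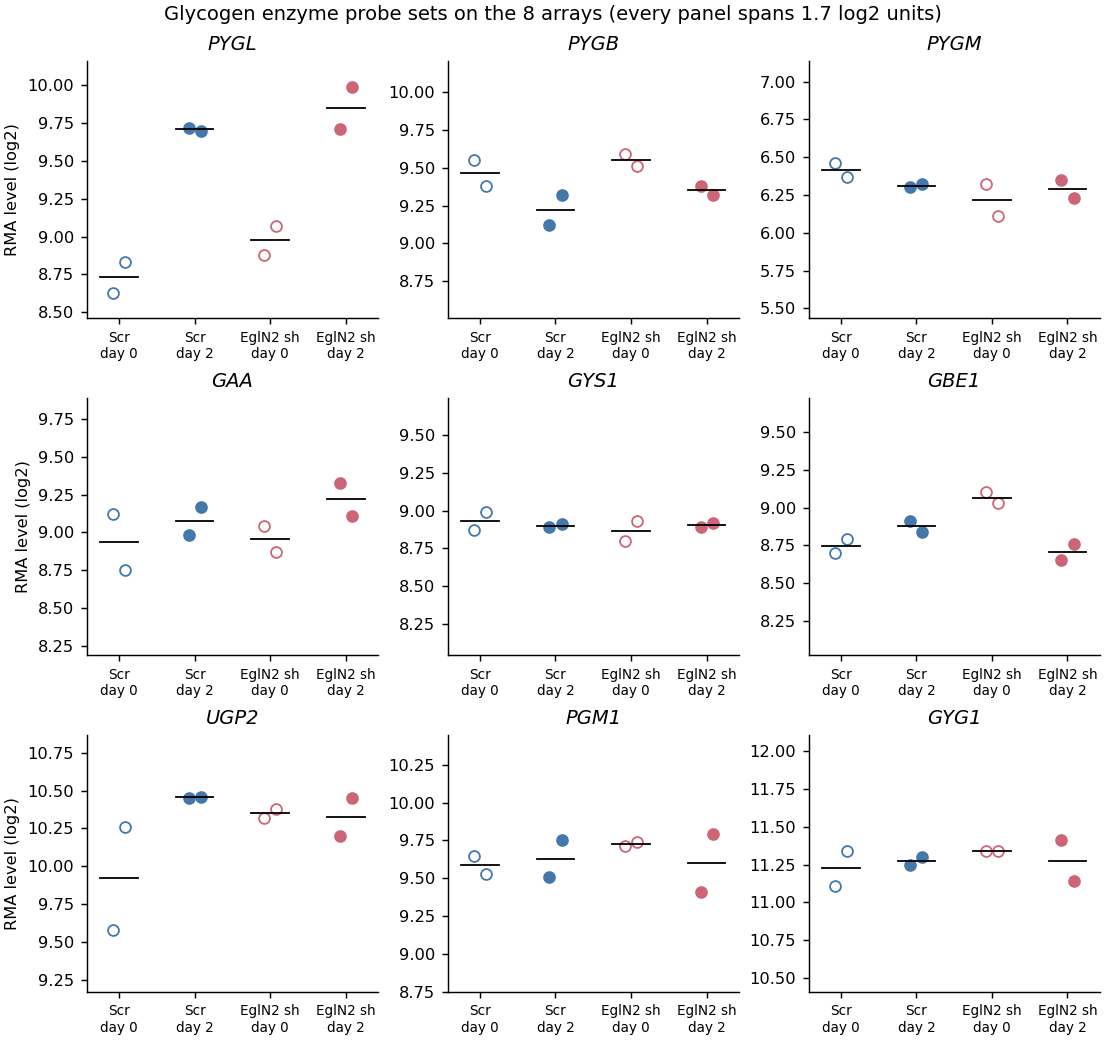
RMA log2 level of each of the 9 members on the 8 arrays, by line and day. Circles are arrays (open at day 0, filled at day 2), bars are group means (n = 2), and every panel spans the same number of log2 units. The PYGL panel is the only panel in which all 4 day 2 arrays lie above all 4 day 0 arrays, and the low UGP2 point at 9.58 is Scr day 0 replicate 1.

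PYGB, which encodes the brain form of glycogen phosphorylase, went the other way by a smaller amount. Before doxycycline the Scr arrays gave 9.55 and 9.38, and after 48 h they gave 9.12 and 9.32. The EglN2 shRNA arrays gave 9.59 and 9.51 before, and 9.38 and 9.32 after. Within each line both day 2 arrays were below both day 0 arrays, although the day 0 value of 9.38 in the Scr line equalled a day 2 value of the other line. The difference was -0.25 (SE 0.11) in the Scr line and -0.20 (SE 0.11) in the EglN2 shRNA line. The log2 ratio of PYGL to PYGB on the same array was higher at day 2 by 1.23 in the Scr line (SD 0.26 at day 0 and 0.16 at day 2, n = 2 each) and by 1.08 in the EglN2 shRNA line (SD 0.19 and 0.24). The 4 possible day 2 minus day 0 differences of this ratio ran from 0.93 to 1.52 in the Scr line and from 0.77 to 1.38 in the EglN2 shRNA line. Most of this day difference of the ratio is that of PYGL itself, on which PYGL was chosen, so the ratio is a description as well.

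PYGM, the muscle form, lay at 6.46 and 6.37 on the Scr arrays before doxycycline and at 6.30 and 6.32 after. The EglN2 shRNA arrays had it at 6.32 and 6.11, then 6.35 and 6.23. Its 8 values lay below the median of every array, so little can be said of its level, and the day differences of -0.11 (SE 0.11) and 0.08 (SE 0.11) had opposite signs. GAA encodes lysosomal acid alpha-glucosidase, the enzyme lacking in Pompe disease. Scr arrays had it at 9.12 and 8.75 before doxycycline, against 8.98 and 9.17 after. EglN2 shRNA cells gave 9.04 and 8.87 before, then 9.33 and 9.11 after. The day difference of GAA was 0.14 (SE 0.15) in the Scr line and 0.27 (SE 0.15) in the EglN2 shRNA line.

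The genes of glycogen synthesis showed no day difference shared by both lines. GYS1 encodes the glycogen synthase of muscle and most other tissues. It read between 8.80 and 8.99 on all 8 arrays, with day differences of -0.03 (SE 0.10) in the Scr line and 0.04 (SE 0.10) in the EglN2 shRNA line. GYG1 encodes glycogenin, the protein primer of glycogen. It read 11.11 and 11.34 in the Scr line at day 0, 11.25 and 11.30 there at day 2, 11.34 on both arrays of the EglN2 shRNA line at day 0, and 11.41 and 11.14 there at day 2. The days overlapped in both lines for GYS1 and for GYG1, whose day differences were 0.05 (SE 0.13) and -0.07 (SE 0.13).

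GBE1 encodes the glycogen branching enzyme. Scr cells gave 8.70 and 8.79 before doxycycline, then 8.91 and 8.84 after 48 h. On the EglN2 shRNA arrays it was 9.10 and 9.03 before, and 8.65 and 8.76 after. The days did not overlap in either line, with the day 2 arrays higher in the Scr line (0.13, SE 0.10) and lower in the EglN2 shRNA line (-0.36, SE 0.10). The highest values of GBE1 were those of the EglN2 shRNA line before doxycycline.

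UGP2 makes UDP-glucose, the donor for glycogen synthase. On the Scr arrays the level was 9.58 and 10.26 before doxycycline, and 10.45 and 10.46 after 48 h. The EglN2 shRNA arrays stood at 10.32 and 10.38 before and at 10.20 and 10.45 after. Of the 8 values only 9.58, on Scr day 0 replicate 1, was below 10. The gap of 0.68 between that pair was reached or passed by 1.05% of the named probe sets, whose median gap in this pair was 0.14. The Scr day difference was 0.54 (SE 0.19) with that array and 0.20 without it, and 0.88 without Scr day 0 replicate 2.

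PGM1 encodes a phosphoglucomutase that interconverts glucose 1-phosphate and glucose 6-phosphate. It read 9.65 and 9.53 in the Scr line at day 0, 9.51 and 9.75 there at day 2, 9.71 and 9.74 in the EglN2 shRNA line at day 0, and 9.41 and 9.79 there at day 2. The days overlapped in both lines, with differences of 0.04 (SE 0.14) and -0.13 (SE 0.14). Its replicate pair in the EglN2 shRNA line at day 2 held both its lowest and its highest value.

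Higher at day 2 in both lines without overlap within a line was 1 member, PYGL, where 5.24% of the named probe sets were. Lower in both was 1 member, PYGB, where 4.07% were, and 1 member, GBE1, had opposite day differences without overlap, where 5.69% did. The median day difference averaged over the lines was -0.01 over the 9 members and -0.01 over all 21214 probe sets, with 4 members positive and 5 negative. These counts are a description, since PYGL was chosen on this contrast.

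**Figure D2:**
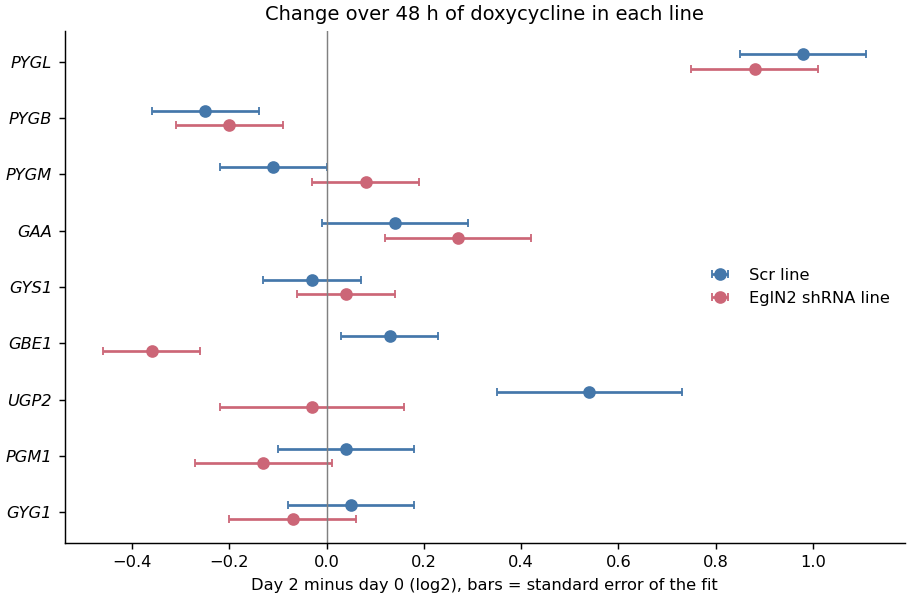
Day 2 minus day 0 difference (log2) of each member in the Scr line and in the EglN2 shRNA line. Points are differences of group means (n = 2 arrays each) and bars are standard errors of the fit over all probe sets. PYGL stands at 0.98 and 0.88, and the other 8 members lie between -0.36 and 0.54.

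The first tested comparison asked whether the members differed between the lines before doxycycline. Of the 9 members 0 passed (limma, adjusted p under 0.05), as did 0% of all named probe sets. An unadjusted p under 0.05 was seen for 2 members, against 10.4% of all probe sets. They were GBE1, higher in the EglN2 shRNA line by 0.32 (SE 0.10, 95% confidence interval 0.09 to 0.55, limma adjusted p = 0.455), and UGP2, higher by 0.43 (SE 0.19, limma adjusted p = 0.479). Without Scr day 0 replicate 1 the UGP2 difference was 0.09. PYGL was 0.25 higher in the EglN2 shRNA line (interval -0.05 to 0.54, limma adjusted p = 0.511). The differences of the other 6 members ran from -0.20 for PYGM to 0.14 for PGM1. The arrays of the lines did not overlap at day 0 for 5 of the 9 members. PYGL, GBE1, UGP2 and PGM1 were higher in the EglN2 shRNA line, as were 22.2% of all named probe sets without overlap, and PYGM was lower, as were 22.9%.

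The second tested comparison was made after 48 h of doxycycline, when the EglN2 shRNA line had its lowest EGLN2 values. Again 0 of 9 members passed, where 0.0754% of all named probe sets did, and 0 had an unadjusted p under 0.05, against 5.19% of all. The differences lay between -0.17 for GBE1 and 0.15 for GAA. PYGL read 0.14 higher in the EglN2 shRNA line (SE 0.13, interval -0.15 to 0.43, limma adjusted p = 0.995), and its arrays of the lines overlapped. This value rests on single arrays: within the EglN2 shRNA day 2 pair, leaving out replicate 1 gave 0.28 and leaving out replicate 2 gave 0.00. No member was higher in the EglN2 shRNA line without overlap at day 2 (0 of 9, against 15.6% of all), and 1 was lower, GBE1. Its arrays of the EglN2 shRNA line lay below those of the Scr line, as did 14.8% of all probe sets, by 0.17 on average (interval of the difference -0.40 to 0.06, limma adjusted p = 0.995). Averaged over both days, 0 members passed, where 0.0330% of all did. The average line differences ran from -0.11 for PYGM to 0.19 for PYGL (interval -0.01 to 0.40, limma adjusted p = 0.633).

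**Figure D3:**
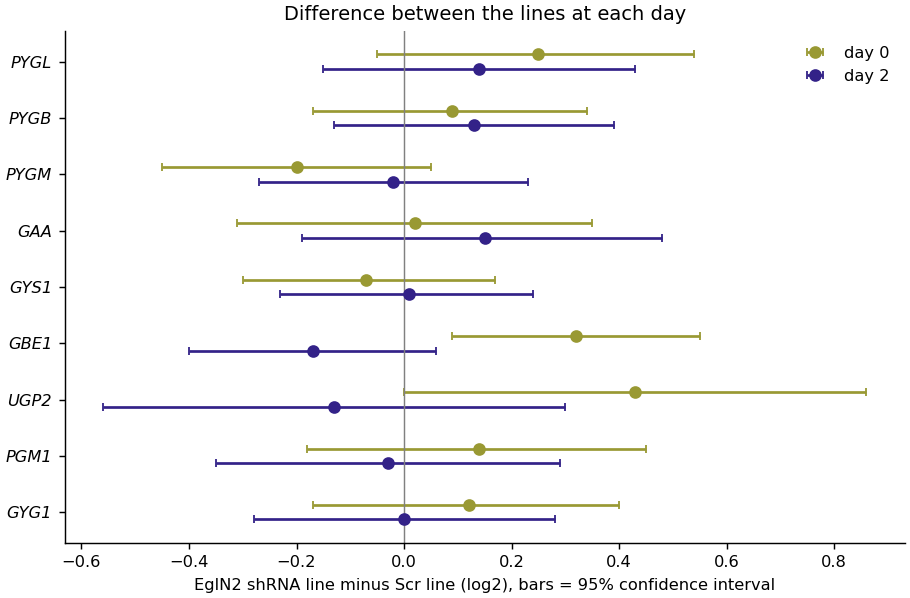
EglN2 shRNA line minus Scr line (log2) for each member at day 0 and at day 2. Points are differences of group means (n = 2 arrays each) and bars are 95% confidence intervals from the fit over all probe sets. The GBE1 interval at day 0, from 0.09 to 0.55, lies above 0, and no member passed the adjusted threshold at either day.

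The third tested comparison asked whether the change over 48 h differed between the lines. With 1 line per hairpin, an effect of the hairpin and any other difference in how the lines respond to doxycycline or time cannot be told apart. Of the 9 members 0 passed, as did 0% of all named probe sets (limma, adjusted p under 0.05). For PYGL the difference of the changes was -0.11 (SE 0.18, interval -0.52 to 0.31). It is made of the day changes on which PYGL was chosen. For PYGL, though counted among the 9, it is therefore a description and no test. The interval leaves room for a change in the EglN2 shRNA line up to 0.52 smaller or 0.31 larger than in the Scr line. The sign rests on single arrays: in the EglN2 shRNA day 2 pair, leaving out replicate 1 gave 0.04 and leaving out replicate 2 gave -0.25. Leaving out Scr day 0 replicate 1 gave -0.01, as did leaving out replicate 2 of the EglN2 shRNA line at day 0. GBE1 was the only member with an unadjusted p under 0.05, which 7.12% of all probe sets had. Its difference of changes was -0.49 (SE 0.15, interval -0.82 to -0.16), with an unadjusted p of 0.00751 and a limma adjusted p of 0.676. UGP2 had a difference of -0.56 (SE 0.27, interval -1.17 to 0.05, limma adjusted p = 0.702), which was -0.22 without Scr day 0 replicate 1. The other 6 members lay between -0.17 for PGM1 and 0.18 for PYGM.

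Other genes of the pathway were taken from 6 lists of 59 genes, of which 51 had a probe set of their own. In the day change none of the 51 passed in the EglN2 shRNA line, in the Scr line or over both lines (0 higher and 0 lower each, limma). The shares of all named probe sets that passed were 0.00943%, 0% and 0.141%. An unadjusted p under 0.05 was seen for 4, 5 and 9 of the 51 (7.84%, 9.8% and 17.6%), against 5.77%, 12.9% and 10.7% of all. The share was thus above that of all probe sets in the EglN2 shRNA line and over both lines, and below it in the Scr line. The median over both lines was 0.01 for the 51 and -0.01 for all probe sets, and the values ran from -0.34 to 0.35. Between the lines and in the difference of changes, 0 of the 51 passed as well, where 0% of all passed at day 0, 0.0754% at day 2, 0.0330% over both days and 0% in the difference. An unadjusted p under 0.05 was seen for 3 of the 51 (5.88%) at day 0 against 10.4% of all, for 1 (1.96%) at day 2 against 5.19%, for 3 (5.88%) over both days against 8.07%, and for 1 (1.96%) in the difference against 7.12%. These last 4 shares, unlike those of the day changes, were all below those of all probe sets.

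Phosphorylase kinase switches glycogen phosphorylase on. All 5 of its listed subunit genes were measured, 4 of them with positive values over both lines, and the median was 0.21. The smallest positive value was that of PHKG1, 0.03 (SE 0.09), which read below the median of every array. PHKA1 had the negative value, -0.06. Its days did not overlap in either line, in opposite directions, as in 5.69% of all named probe sets. Its day difference was 0.19 (SE 0.12) in the Scr line and -0.30 (SE 0.12) in the EglN2 shRNA line. The difference of its changes was -0.49 (SE 0.16, limma adjusted p = 0.676). The catalytic subunit gene PHKG2 lay at 9.30 and 9.32 on the Scr arrays before doxycycline and at 9.42 and 9.60 after. The EglN2 shRNA arrays had it at 9.38 and 9.40, then 9.71 and 9.63. Within each line its day 2 arrays lay above its day 0 arrays, as in 5.24% of all named probe sets. The day difference was 0.24 (SE 0.07, limma adjusted p = 0.311). The regulatory subunit gene PHKB stood at 0.24 as well (SE 0.08, limma adjusted p = 0.368), and the days overlapped in the EglN2 shRNA line.

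Among enzymes outside the 9 members (5 of 8 measured, median 0.04), the liver glycogen synthase gene GYS2 stood at -0.26 (SE 0.11, limma adjusted p = 0.438) and the second glycogenin gene GYG2 at 0.24 (SE 0.11). Of the phosphatase subunits that bring protein phosphatase to glycogen, with laforin and malin (7 of 9 measured, median 0.02), the malin gene NHLRC1 stood at 0.35 (SE 0.13, limma adjusted p = 0.390) and PPP1R3F at -0.13 (SE 0.07). Kinases that act on glycogen synthase or phosphorylase kinase (14 of 15 measured, median 0.04) lay between -0.14 and 0.11, with GSK3A, a kinase that inhibits glycogen synthase, and the AMPK subunit gene PRKAB1 both at -0.14. Genes of glucose uptake and glucose 6-phosphate (15 of 17 measured, median -0.03) included the largest negative value. It belonged to hexokinase HK2, at -0.34 (SE 0.08, limma adjusted p = 0.173), while the glucose 6-phosphate transporter gene SLC37A4 stood at 0.24 (SE 0.10). The list for the lysosome route (5 of 5 measured, median -0.01) ran from -0.05 for MGAM to 0.06 for GABARAPL1. MGAM and SI on that list encode enzymes of the intestinal surface and not of the lysosome. None of these values passed the test. GYS2, GYG2, NHLRC1, MGAM and SI read below the median of every array, so little can be said of their levels.

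**Figure D4:**
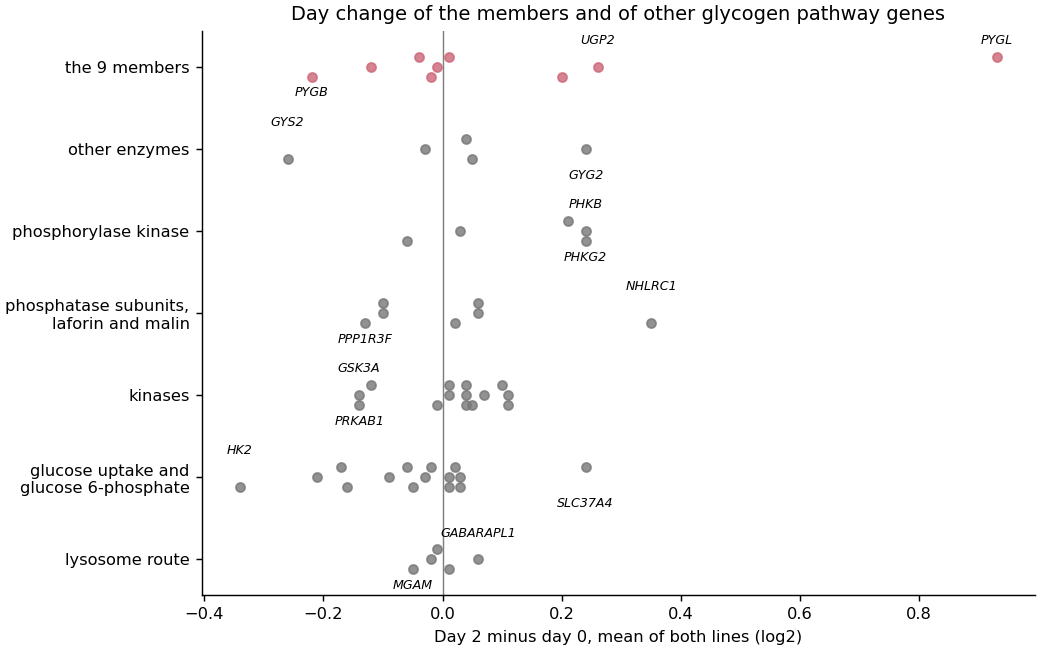
Day 2 minus day 0 difference averaged over both lines (log2) for the 9 members (red) and for 51 other genes of the glycogen pathway (grey), by list. Each point is 1 probe set, offset vertically within its row for visibility, and the points that carry a name are given in the text. PYGL at 0.93 lies to the right of every other point, and HK2 at -0.34 is the lowest.

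The probe sets most like PYGL across the 8 arrays were sought among 1061 single-gene probe sets whose group means spanned at least 0.5. The highest Pearson correlations were those of the cysteine tRNA synthetase gene CARS1 (0.98), the serine synthesis gene PHGDH (0.97), the glycine tRNA synthetase gene GARS1 (0.96), the mitochondrial PEP carboxykinase gene PCK2 (0.96) and SCML1 (0.96). Their day differences were smaller than those of PYGL. CARS1 stood at 0.54 in the Scr line and 0.61 in the EglN2 shRNA line, PCK2 at 0.56 and 0.57, and GARS1 at 0.41 and 0.37. The most negative were those of PDCL3 (-0.98), IER3 (-0.94) and the quinone reductase gene NQO1 (-0.94). The 8 points share the split by day, so a gene that separates the days in both lines scores highly, and the order is a description.

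**Figure D5:**
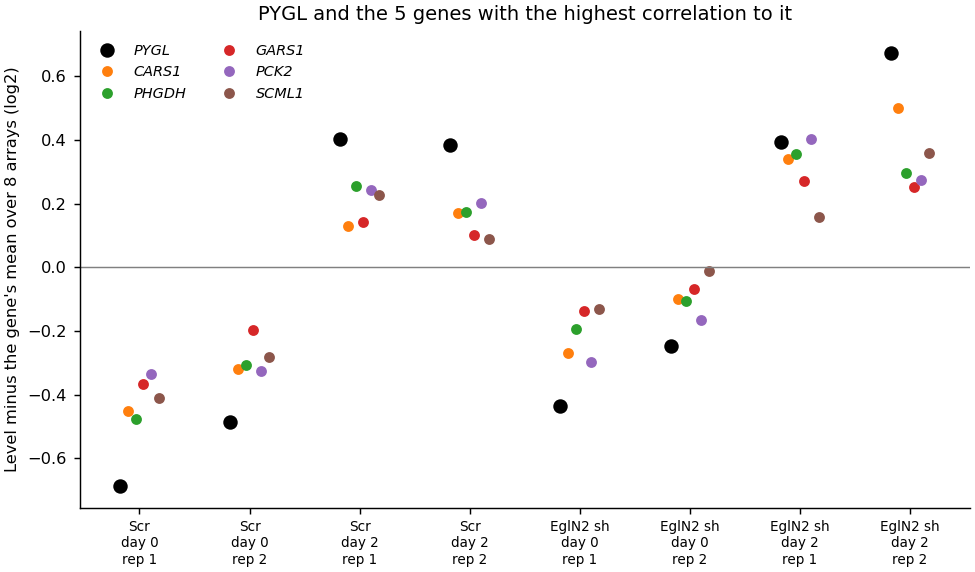
Level of PYGL (black) and of the 5 genes most correlated with it on each of the 8 arrays, as the log2 level minus that gene's mean over the arrays. Points are single arrays, offset sideways by gene. All 6 genes are below their mean on the 4 day 0 arrays and above it on the 4 day 2 arrays, with PYGL spread the widest.

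Within the members, correlation with PYGL over the 8 arrays ran from -0.74 for PYGB to 0.63 for UGP2. Scr day 0 replicate 1 held the lowest value of both UGP2 (9.58) and PYGL (8.63), and the correlation without that array was not computed. GAA stood at 0.48 and the synthase gene GYS1 at 0.11.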

How the data were processed

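RNA of 8 T47D samples was measured on Affymetrix arrays. The submitters' processing notes name RMA and Expression Console for the deposited log2 values, 1 per probe set, with no version. RMA subtracts background, brings arrays to a common distribution and merges the probes of a set; differences between dim genes come out smaller. Scanner files were not analysed here, so signal over background is unknown, and the number of arrays limits the precision (median SE of a difference between groups 0.12).

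Groups came from the sample titles. Single gene names (19460 probe sets) were updated by gene ID through RefSeq (19429 matched). Probe sets with a gene name (21214 of 33297) from the 8 arrays together were fitted to group means (R 4.3.3, limma 3.58.1, 4 residual and 5.53 prior degrees of freedom), two-sided, with Benjamini-Hochberg adjustment over all of them and a threshold of 0.05. The fit was tested on simulated data. The members and the pathway lists were chosen with earlier results of these data known. Named were all members, EGLN2, pathway genes that passed, the 2 genes of each list with the largest day difference, and the 5 most and 3 least correlated with PYGL. PHKA1 was named in addition, for its opposite day differences in the lines, PHKG1 for its low level, and SI because its enzyme is not lysosomal. Alternatives were leaving out each array, a replicate block, only the compared groups' arrays, a prior variance that follows the level, a common array median, repeated quantile normalization, a filter on dim probe sets, all probe sets, and single-name probe sets.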

Additional observations from a re-analysis of the deposited data

Results flagged for a closer look

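GBE1 had day differences of opposite direction in the lines: every day 2 array of the Scr line lay above every day 0 array, and every day 2 array of the EglN2 shRNA line lay below every day 0 array. The difference of the changes was -0.49, with limma adjusted p = 0.676, and 5.69% of named probe sets showed such opposite and separate pairs. It stayed negative under all 15 alternatives run, between -0.55 and -0.43, with adjusted p from 0.194 to 0.987.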

How the results depend on the processing

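The number of members called was 0 in the line differences at day 0, day 2 and over both days and in the difference of changes, and the number of other pathway genes called in the 3 day changes was 0. Over the 124 recomputed values these counts stayed at 0 and the PYGL day difference over both lines stayed positive, within its replicate SD. The PYGL value over both lines ran from 0.86 to 1.00 without single arrays and from 0.90 to 0.93 otherwise. Without single arrays it ran from 0.88 to 1.08 in the Scr line and from 0.74 to 1.02 in the EglN2 shRNA line. Both ends of the range in the EglN2 shRNA line were further from the main value than the replicate SD. Of 840 recomputed values of single members, 51 were counted as changed. In a tested contrast this meant a change of sign, and in a day difference a move by more than the replicate SD. Moves without a change of sign were not counted in the tested contrasts, so 51 is not a count of all moves beyond the SD. The UGP2 values that rest on Scr day 0 replicate 1 are given above. The labels tie the replicate numbers to no batch. Deviations of same-numbered arrays correlated positively in all 6 pairs of groups, 5 of them between 0.163 and 0.271 and 1 at 0.098, below the 0.1 asked of every pair to treat the numbers as pairs, so the block stays an alternative. Whether same-numbered arrays share a source was not tested. With a replicate block PYGL stood at 0.93 and 0 members were called. Counts over all probe sets moved more. In the day change over both lines 30 were called, against 150 with the replicate block, 76 with a prior variance that follows the level, 75 above the median level, 0 over all probe sets of the table and 0 to 20 without single arrays. In the day change of the Scr line 0 were called, against 42 with the replicate block, 7 above the median level and 6 with a prior variance that follows the level. In that of the EglN2 shRNA line 2 were called, against 13 with the replicate block. At day 2 between the lines 16 were called, against 34 above the median level, 32 with the replicate block, 26 with a prior variance that follows the level, 0 with only the compared groups' arrays, 0 over all probe sets and 0 to 15 without single arrays. Over both days between the lines 7 were called, against 18 with the replicate block, 0 over all probe sets and 0 to 6 without single arrays.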
